A study of Mus musculus with 16 samples.

Results

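The homing receptors of splenic B cells described here were 9 genes, taken by their symbols from a table of 27928 genes: the chemokine receptors *Cxcr3*, *Cxcr4*, *Cxcr5*, *Ccr6*, *Ccr7* and *Ccr9*, the atypical chemokine receptor *Ackr3*, the oxysterol receptor *Gpr183* and the cannabinoid receptor *Cnr2*. All 9 passed the filter on low values. RNA was sequenced from B cells of the follicle (FO) and of the marginal zone (MZ) taken from mouse spleen by sorting, with 2 libraries in each of 4 groups. WT FO and WT MZ cells came from C57BL/6 mice without a floxed *Gtf2i* allele or Cre. The cKO FO and cKO MZ cells came from C57BL/6 mice carrying Gtf2i fl/fl and a Cre, so that *Gtf2i*, which encodes the transcription factor TFII-I, was floxed in every cell and targeted for deletion in B cells. The controls lacked the Cre as well as the floxed allele, so effects of the deletion and of the Cre cannot be told apart. Mice were 8 to 12 weeks old according to the methods of the study, FO cells were sorted as CD21lo CD23hi and MZ cells as CD21hi CD23lo, and no stimulus was given to them. The sources used here do not say how many animals each library was made from, so the p-values measure the spread between libraries.

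Homing receptors are G protein-coupled receptors that steer B cells along gradients of chemokines and lipids. CXCR5 binds CXCL13 and draws cells into the follicle, CCR7 binds CCL19 and CCL21 and draws them toward the T cell zone, and GPR183, also named EBI2, senses an oxysterol made by stromal cells at the border of the follicle. CXCR4 signals in response to CXCL12, whereas ACKR3 binds the same chemokine and removes it without coupling to G proteins. MZ B cells sit at the blood sinus outside the follicle, where CNR2, which binds the endocannabinoid 2-arachidonoylglycerol, is known to help to hold them.

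The sorted cells carried the transcripts of their gates and of the targeted gene. *Gtf2i* normalized counts were 2040 and 1992 (FO) against 2864 and 2471 (MZ) in WT libraries, and 1523 and 1531 (FO) against 1782 and 1889 (MZ) in cKO libraries, lower in both cKO libraries than in both WT libraries of each subset. These counts cover all exons of the gene, and which of them are floxed is not given in the sources used here. Normalized counts are reads scaled by the size factor of each library. *Fcer2a*, which encodes CD23, ranged from 24800 to 41970 in FO and from 3069 to 6708 in MZ libraries, and *Cr2*, which encodes CD21, from 22940 to 26800 in FO and from 86950 to 97090 in MZ libraries. The libraries held 21546552 to 25083552 reads on genes. Libraries also differed in ways that the sort does not name: *Ddx3y*, a gene of the Y chromosome, was at most 6.34 in WT and at least 2682 in cKO libraries, and *Xist*, transcribed from the inactive X chromosome of females, was 25930 to 47000 in WT and 21.6 to 89.7 in cKO libraries, except for 14750 in cKO FO replicate 1. That library thus held transcripts of both sexes, and the sex of the animals and the genotype cannot be told apart. The summed erythroid markers were 13300 and the summed granulocyte markers 1968 in cKO MZ replicate 1, against at most 1007 and 109 in the other 7 libraries.

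The genes that encode both CXCL12 receptors differed between FO and MZ B cells in opposite directions, *Ackr3* in each genotype and *Cxcr4* in cKO and across genotypes, and their upstream sequences are shown here with that of *Cxcr3*, the other gene called across genotypes that the RefSeq promoter table of build GRCm38.p6 holds. The table held 7 of the 9 receptor genes, and *Ccr7* and *Cxcr5* are named only. Each sequence is the 250 bases before the start site, 5′ to 3′ on the strand of the gene, and capitals mark the matches to any of 4 short motifs, read on both strands: TGGGAA (the core bound by RBPJ, the nuclear partner of Notch), CACCC (the core bound by Kruppel-like factors), CANNTG (the E-box) and TATAAA (the TATA box). *Ackr3* lies at chr1:90203730-90203979 on the plus strand, *Cxcr4* at chr1:128592300-128592549 on the minus strand and *Cxcr3* at chrX:101734148-101734397 on the minus strand.
Ackr3: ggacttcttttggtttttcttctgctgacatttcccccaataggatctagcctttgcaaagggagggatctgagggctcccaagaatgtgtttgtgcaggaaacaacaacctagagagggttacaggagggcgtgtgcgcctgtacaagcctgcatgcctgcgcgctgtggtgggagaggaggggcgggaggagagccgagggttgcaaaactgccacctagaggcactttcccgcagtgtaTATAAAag
Cxcr4: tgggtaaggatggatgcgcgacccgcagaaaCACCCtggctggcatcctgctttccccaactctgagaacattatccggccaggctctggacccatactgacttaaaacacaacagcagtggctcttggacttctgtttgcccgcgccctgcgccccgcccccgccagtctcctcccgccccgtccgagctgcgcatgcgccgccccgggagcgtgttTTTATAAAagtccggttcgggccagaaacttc
Cxcr3: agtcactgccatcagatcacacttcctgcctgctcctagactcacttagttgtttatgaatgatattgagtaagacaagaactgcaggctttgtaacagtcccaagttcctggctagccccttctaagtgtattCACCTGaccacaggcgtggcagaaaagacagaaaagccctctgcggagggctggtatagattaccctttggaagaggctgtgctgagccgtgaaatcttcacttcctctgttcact
The *Ackr3* stretch held 1 TATA box match close to its start site and no match to the other motifs. The *Cxcr4* stretch held 1 CACCC match and 2 overlapping TATA box matches, 1 on each strand. The *Cxcr3* stretch held 1 E-box. Among all 32851 stretches of this length in the table, 21.6% held TGGGAA, 52.0% CACCC, 66.2% CANNTG and 12.4% TATAAA, so that the TATA box was the least common of the 4 motifs. A match of letters is not a binding site.

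*Ackr3* was the receptor with the largest difference between the subsets, and it was higher in MZ B cells of both genotypes. *Ackr3* (chr1:90203980-90216751, plus strand, in GRCm38 as for all genes here) had normalized counts of 38.9 and 48.5 (FO) against 3100 and 1902 (MZ) in WT libraries, and 52.6 and 33.2 (FO) against 3551 and 2675 (MZ) in cKO libraries. The 4 MZ libraries all lay far above the 4 FO libraries, which held only 33 to 51 reads of the gene. In bulk RNA, fewer cells with a transcript and less of it per cell cannot be told apart. On the scale of the log2 of the normalized count plus 1, FO minus MZ was -5.77 (SE 0.300) in WT, which is 54.6-fold, and -6.17 (SE 0.300) in cKO, which is 72.0-fold, with limma adjusted p = 5.82e-05 and 3.86e-05. A gene was called when its adjusted p was 0.05 or less and its fold change 1.5 or more. The call was kept in WT and in cKO under all 18 alternatives to this fit, several of which could not change the size of the difference. Without cKO MZ replicate 1, the library rich in erythroid and granulocyte transcripts, FO minus MZ in cKO was -5.96.

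**Figure D1:**
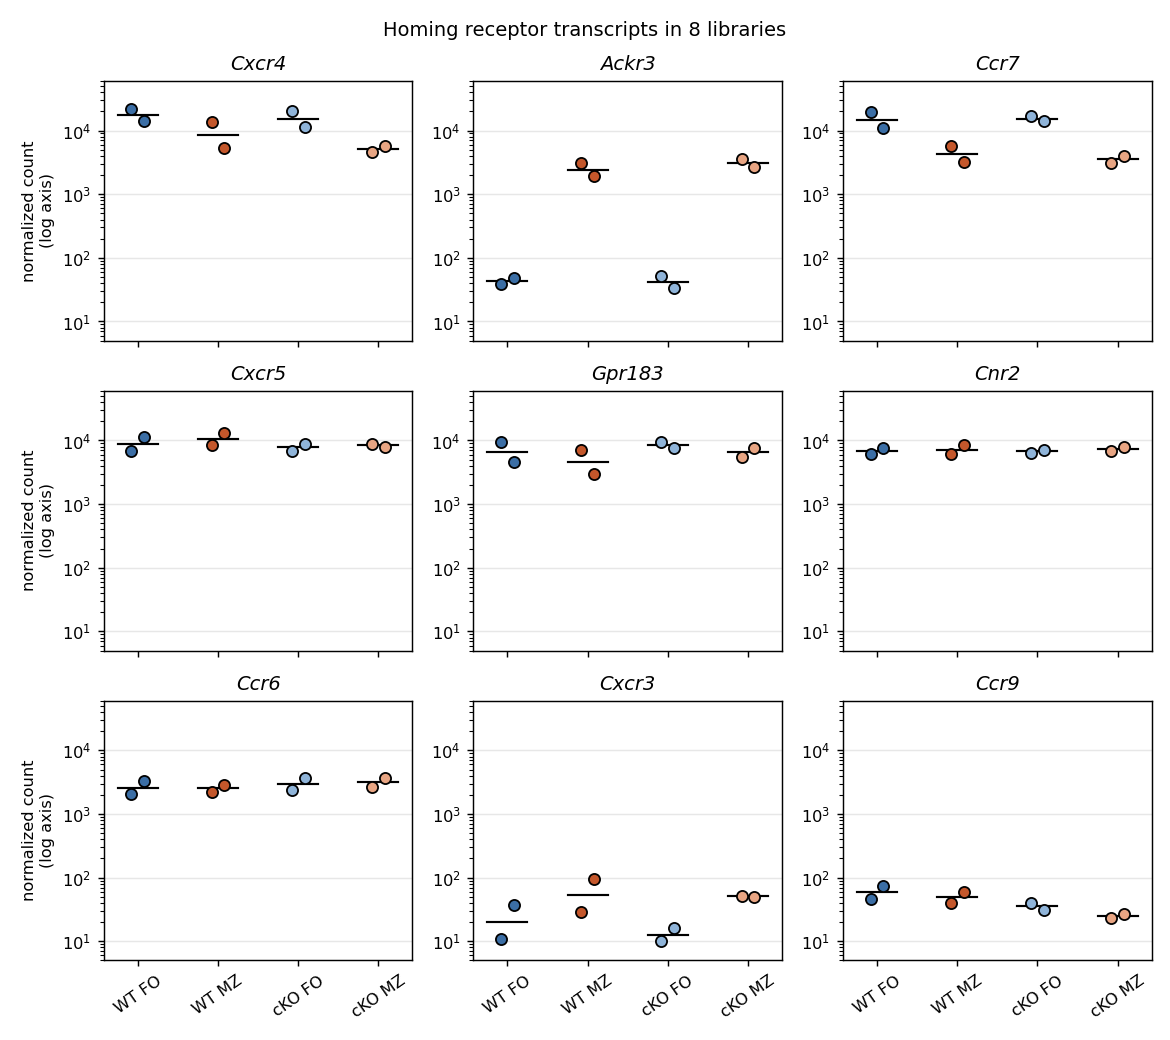
Normalized counts of the 9 homing receptor genes (vertical log axis, the same range in each panel) in the 4 groups (horizontal axis). Points are the 2 libraries of a group and the bar is their geometric mean; *Ackr3* lies at 33.2 to 52.6 in FO and at 1902 to 3551 in MZ libraries, and *Ccr7* lies higher in FO.

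*Ccr7* was the receptor called higher in FO B cells of both genotypes. Normalized counts of *Ccr7* (chr11:99144196-99155077, minus strand) were 19574 and 10945 (FO) against 5789 and 3226 (MZ) in WT libraries, and 16631 and 14218 (FO) against 3121 and 3997 (MZ) in cKO libraries. The lowest FO library was thus above the highest MZ library in each genotype. FO minus MZ was 1.76 (SE 0.330) in WT, which is 3.39-fold, and 2.12 (SE 0.330) in cKO, which is 4.35-fold, with limma adjusted p = 0.0107 and 0.00436. In a fit of the 4 WT libraries alone, the WT difference missed the threshold (limma adjusted p = 0.0664). T cells also carry *Ccr7*, and the 12 T cell markers summed to 101 to 157 in FO and 109 to 189 in MZ libraries, with *Cd3e* at no more than 5.71 in any library.

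*Cxcr4* lay higher in FO than in MZ libraries as well, but the spread between libraries was wide. Normalized counts of *Cxcr4* (chr1:128588199-128592293, minus strand) were 21690 and 14072 (FO) against 13761 and 5351 (MZ) in WT libraries, and 20344 and 11384 (FO) against 4569 and 5713 (MZ) in cKO libraries. The FO libraries were above the MZ libraries in each genotype, in WT by a narrow margin between the lower FO and the higher MZ library. In cKO, FO minus MZ was 1.58 (SE 0.452), which is 2.98-fold, with limma adjusted p = 0.0467. That call was lost when any of the 4 cKO libraries was left out, at limma adjusted p = 0.252 without cKO FO replicate 1, 0.0665 without cKO FO replicate 2, 0.225 without cKO MZ replicate 1 and 0.124 without cKO MZ replicate 2. It was also lost without the filter on low counts (0.0682) and with quantile normalization (0.0520), both by limma adjusted p. In WT the difference was 1.03 with a 95% interval of -0.02 to 2.08 (limma adjusted p = 0.174), and it passed at 1.71 without WT MZ replicate 1 (limma adjusted p = 0.0302) and was 0.34 without WT MZ replicate 2. Across genotypes the difference was 1.30 (SE 0.320), which is 2.46-fold, and passed with limma adjusted p = 0.0170. Without WT FO replicate 1, cKO FO replicate 1 or cKO MZ replicate 1 it missed the threshold, with limma adjusted p of 0.0509, 0.0669 and 0.0671.

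**Figure D2:**
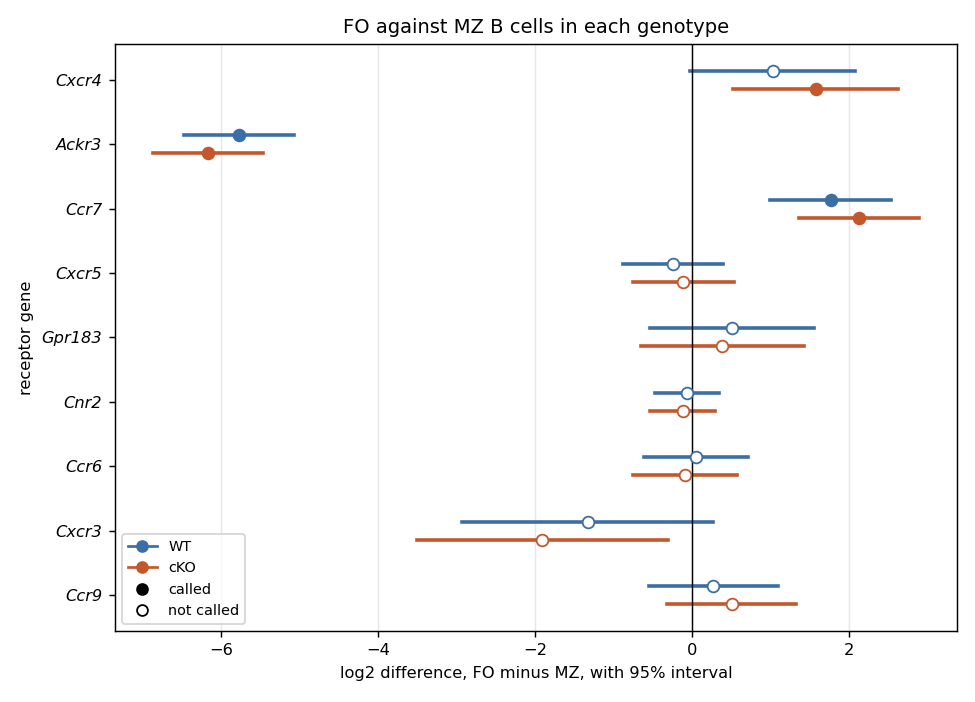
Difference between the FO and MZ subsets of WT and of cKO mice for each receptor gene (vertical axis), as log2 of the normalized count plus 1 (horizontal axis), with 95% intervals from limma. Filled points passed the threshold: *Ackr3* at -5.77 and -6.17, *Ccr7* at 1.76 and 2.12, and *Cxcr4* in cKO at 1.58; the open points did not pass.

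*Cxcr3*, the receptor for the interferon-induced chemokines CXCL9, CXCL10 and CXCL11, was expressed at a low level, with the higher means in MZ B cells. Normalized counts of *Cxcr3* (chrX:101731535-101734269, minus strand) were 10.98 and 37.1 (FO) against 28.9 and 96.0 (MZ) in WT libraries, and 10.1 and 16.1 (FO) against 50.8 and 50.5 (MZ) in cKO libraries, which correspond to between 9 and 106 reads. The WT subsets overlapped, although the MZ library was the higher at each replicate number, and the cKO subsets did not. FO minus MZ was -1.33 (95% interval -2.94 to 0.27) in WT and -1.91 (-3.51 to -0.31) in cKO, and neither passed (limma adjusted p = 0.242 and 0.0944). The cKO difference passed in a fit of the 4 cKO libraries alone (limma adjusted p = 0.0146) and with a replicate block (limma adjusted p = 0.0287). Across genotypes, the mean of both differences was -1.62 (SE 0.488), which is 3.08-fold, and passed with limma adjusted p = 0.0365. That call was lost when any library but WT FO replicate 2 or WT MZ replicate 1 was left out, with limma adjusted p of 0.0895 without WT FO replicate 1, 0.0933 without WT MZ replicate 2, 0.116 without cKO FO replicate 1, 0.0646 without cKO FO replicate 2, 0.101 without cKO MZ replicate 1 and 0.0950 without cKO MZ replicate 2. It was also lost without the filter on low counts and with quantile normalization (limma adjusted p = 0.0567 and 0.0526). NK cells also carry *Cxcr3*, and the 6 NK cell markers summed to 104 to 380.5 in FO and 395 to 576 in MZ libraries. Of this, the cytotoxic gene *Prf1* made 43.3 to 84.7 and 299 to 410. *Prf1* was called higher in MZ at -2.455 in WT and -2.80 in cKO (limma adjusted p = 0.00236 and 0.00119), and the other 5 were not called. Over all tested genes, 7.41% were called higher in MZ in WT and 8.18% in cKO. *Ncr1*, which defines NK cells, was 8.05 to 39.0 in FO and 4.82 to 23.6 in MZ libraries. Its FO minus MZ was 0.93 in WT and -0.30 in cKO. The median over the 6 markers was 0.70 in WT and -0.50 in cKO. The T cell marker *Trac* was 8.98 and 13.3 (FO) against 29.9 and 38.9 (MZ) in WT libraries. Its FO minus MZ was -1.55 in WT and -1.41 in cKO (limma adjusted p = 0.0485 and 0.0607). The other tested T cell markers, *Il7r* at 0.34 and 1.16 and *Lat* at -0.07 and -0.16, were not called. The part of NK cells and of T cells in the *Cxcr3* difference was not tested.

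The other 5 receptors did not pass the test between the subsets in either genotype. *Cxcr5* (chr9:44511787-44561877, minus strand) had normalized counts of 6850 and 11532 (FO) against 8534 and 13001 (MZ) in WT libraries, and 6885 and 8816 (FO) against 8876 and 8013 (MZ) in cKO libraries. The subsets overlapped in both genotypes, and FO minus MZ was -0.25 (95% interval -0.88 to 0.39) in WT and -0.11 (-0.75 to 0.53) in cKO. *Cnr2* (chr4:135895394-135920207, plus strand) had normalized counts of 6158 and 7687 (FO) against 6148 and 8413 (MZ) in WT libraries, and 6281 and 7189 (FO) against 6751 and 7931 (MZ) in cKO libraries. Its FO and MZ libraries also overlapped, with differences of -0.06 (-0.47 to 0.35) in WT and -0.12 (-0.53 to 0.29) in cKO, the narrowest intervals of the 9 genes. In this fit, a difference of 1.5-fold in *Cnr2* lay outside both intervals, in either direction. With quantile normalization the *Cnr2* difference in cKO was -0.29. The *Cxcr5* intervals of this fit still held 1.5-fold higher levels in MZ B cells.

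*Gpr183* (chr14:121952551-121965195, minus strand) had normalized counts of 9461 and 4553 (FO) against 7145 and 2982 (MZ) in WT libraries, and 9490 and 7513 (FO) against 5569 and 7538 (MZ) in cKO libraries. In WT the libraries of each subset differed from each other by more than the subset means did, and FO minus MZ was 0.51 (95% interval -0.53 to 1.55) in WT and 0.38 (-0.66 to 1.42) in cKO. *Ccr6* (chr17:8236043-8257141, plus strand), the receptor for CCL20, had normalized counts of 2066 and 3290 (FO) against 2248 and 2849 (MZ) in WT libraries, and 2387 and 3672 (FO) against 2693 and 3702 (MZ) in cKO libraries, with differences of 0.04 (-0.62 to 0.70) in WT and -0.09 (-0.75 to 0.57) in cKO. *Ccr9* (chr9:123678439-123784330, plus strand), the receptor for the gut and thymus chemokine CCL25, had normalized counts of 46.9 and 75.2 (FO) against 40.5 and 59.8 (MZ) in WT libraries, and 40.3 and 31.2 (FO) against 22.9 and 26.8 (MZ) in cKO libraries, with differences of 0.27 (-0.55 to 1.09) in WT and 0.50 (-0.32 to 1.32) in cKO. These 5 genes had limma adjusted p from 0.506 to 0.945 in WT and from 0.366 to 0.854 in cKO. *Gpr183* lies within *Ubac2* on the other strand, with 0 exon bases shared, and 110 exon bases of *Cxcr5* are shared with *Bcl9l* on the other strand. Of the 10260 exon bases of *Ccr9*, 1932 are shared with *Gm17021* and 22 with *Slc6a20a*, both on the other strand. *Ccr9* also shares 269 exon bases with *Gm17200* on the same strand. The use of strand in the counting is not given in the sources used here.

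Of the 9 receptors, 1 was called higher in FO and 1 higher in MZ in WT, where 4.62% and 7.41% of all 14761 tested genes were called in those directions. In cKO, 2 were called higher in FO and 1 in MZ, against 5.54% and 8.18% of all tested genes. Across genotypes, *Ccr7* and *Cxcr4* were called higher in FO and *Ackr3* and *Cxcr3* higher in MZ, against 7.45% and 10.9% of all tested genes. The median of FO minus MZ over the 9 receptors was 0.04 in WT and -0.09 in cKO, beside 0.0048 and 0.0047 over all tested genes. The comparisons in WT and in cKO share no library but share an estimate of the spread.

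Per kb of exon, *Cxcr4* and *Ccr7* were the most abundant receptor transcripts of FO B cells, and *Cxcr4* and *Cxcr5* had the highest means in MZ B cells. In WT FO, the mean level per kb was 9890 for *Cxcr4* and 7714 for *Ccr7*, whose libraries overlapped, followed by 2758 for *Cxcr5*, 2427 for *Gpr183*, 1738 for *Cnr2* and 1154 for *Ccr6*. *Cxcr5* overlapped with *Gpr183* and *Gpr183* with *Cnr2*, and the lower 3 were *Ackr3* at 13.1, *Cxcr3* at 13.9 and *Ccr9* at 5.95, also with overlap. In cKO FO, *Cxcr4* at 8774 and *Ccr7* at 7798 overlapped, as did *Gpr183* at 2945 with *Cxcr5* at 2356 and *Cnr2* at 1691 with *Ccr6* at 1306, while *Ackr3* at 12.8, *Cxcr3* at 7.56 and *Ccr9* at 3.49 did not. In WT MZ, *Cxcr4* at 5286, *Cxcr5* at 3232, *Ccr7* at 2279, *Cnr2* at 1828, *Gpr183* at 1754 and *Ccr6* at 1099 each overlapped with the neighbour in this order, and *Ackr3* followed without overlap at 747 ± 253 (SD, n = 2). The order in cKO MZ ran from *Cxcr4* at 2843 and *Cxcr5* at 2534 through overlapping levels to *Ccr6* at 1378, with *Ackr3* at 930 ± 185 (SD, n = 2) below it.

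Of the 5 ratios computed within a library, which need no scaling between libraries, that of *Ackr3* to *Cxcr4* and that of *Ccr7* to *Cxcr5* are shown. The per kb ratio of *Ackr3* to *Cxcr4* was 0.000969 and 0.00186 (FO) against 0.122 and 0.192 (MZ) in WT libraries, and 0.00140 and 0.00158 (FO) against 0.420 and 0.253 (MZ) in cKO libraries. The ratio of *Ccr7*, the receptor that leads to the T cell zone, to *Cxcr5*, the receptor of the follicle, was 4.81 and 1.599 (FO) against 1.14 and 0.418 (MZ) in WT libraries, and 4.07 and 2.72 (FO) against 0.592 and 0.840 (MZ) in cKO libraries. Every FO library was above every MZ library for the second ratio and below every MZ library for the first. The subsets overlapped in the ratio of *Gpr183* to *Cxcr5*, 0.456 to 1.59 in FO and 0.265 to 1.09 in MZ libraries, and in that of *Cnr2* to *Cxcr5*, 0.558 to 0.763 and 0.542 to 0.828. The ratio of *Cxcr4* to *Ccr7* was 0.876 to 1.41 in FO and 1.56 to 2.60 in MZ libraries.

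**Figure D3:**
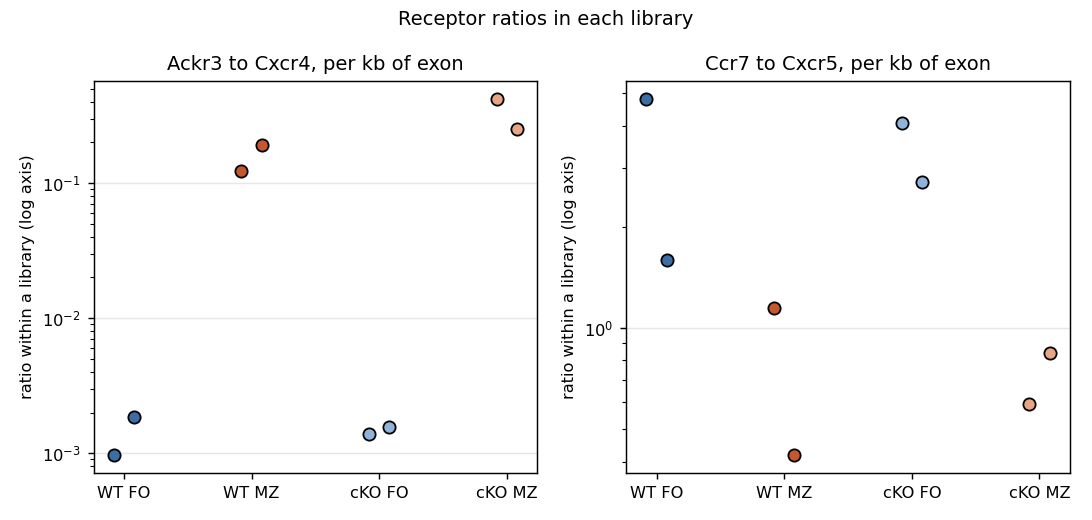
Ratio of *Ackr3* to *Cxcr4* (left) and of *Ccr7* to *Cxcr5* (right) in each library, per kb of exon, on log axes, for the 4 groups on the horizontal axis. The left ratio is at most 0.00186 in FO and at least 0.122 in MZ libraries, and the right ratio is at least 1.599 in FO and at most 1.14 in MZ libraries.

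None of the 9 receptors was called between cKO and WT mice. In FO B cells, cKO minus WT ran from -0.73 (*Ccr9*) to 0.36 (*Gpr183*) and in MZ B cells from -0.96 (*Ccr9*) to 0.49 (*Gpr183*), with limma adjusted p of 1 and 0.998 for each receptor. The count of called receptors was 0 in each subset, where 0.0677% of all tested genes were called in FO and 0.0339% in MZ B cells, and DESeq2 and edgeR on the recovered reads called none of the 9 either. At an unadjusted p of at most 0.05, there were 0 of the 9 receptors in FO, beside 382 of the 14761 tested genes, and 1 in MZ B cells, beside 596. That gene was *Ccr9*, for which both cKO libraries lay below both WT libraries in each subset, at -0.73 (95% interval -1.55 to 0.09) in FO and -0.96 (-1.78 to -0.14) in MZ B cells, on 23 to 79 reads. *Cxcr4* in MZ B cells was -0.75 (-1.80 to 0.30). The test of whether FO minus MZ differed between the genotypes called none of the 9 receptors, with differences of the differences from -0.57 (*Cxcr3*) to 0.55 (*Cxcr4*), and 0% of all tested genes were called. DESeq2 and edgeR called none there either, and limma gave 94 of all tested genes an unadjusted p under 0.05. For *Ackr3* the difference of the differences was -0.40 (-1.38 to 0.59), so that 54.6-fold in WT and 72.0-fold in cKO were not distinguishable, and for *Ccr7* it was 0.36 (-0.72 to 1.45).

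**Figure D4:**
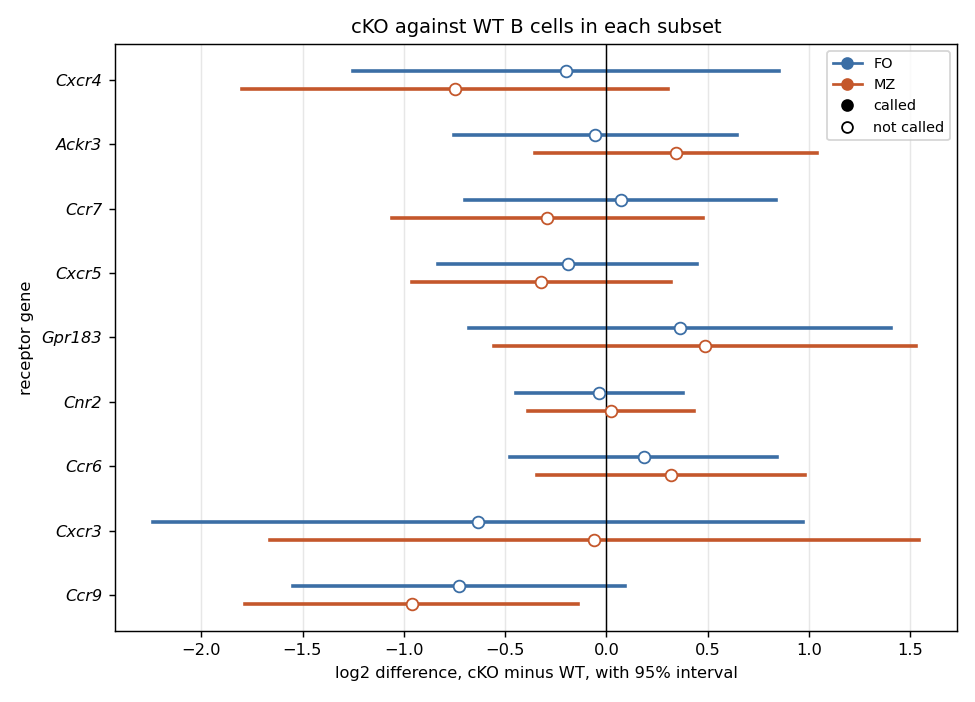
Difference between cKO and WT in FO and in MZ B cells for each receptor gene (vertical axis), as log2 of the normalized count plus 1 (horizontal axis), with 95% intervals from limma. All points are open, since none passed the threshold, and the intervals of *Cxcr3* and *Cxcr4* are wide.

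Several receptors differed between the libraries of the same group, in both WT subsets alike. In WT, replicate 1 exceeded replicate 2 for *Cxcr4* by 0.62 in FO and 1.36 in MZ on the log2 scale, for *Gpr183* by 1.05 and 1.26, and for *Ccr7* by 0.84 in both subsets. *Cxcr5*, *Ccr6*, *Cnr2* and *Cxcr3* ran the other way in WT, at -0.75 and -0.61, -0.67 and -0.34, -0.32 and -0.45, and -1.67 and -1.70. So did *Ccr9*, at -0.67 and -0.55. In cKO FO, *Cxcr4*, *Gpr183* and *Ccr7* lay higher in replicate 1, at 0.84, 0.34 and 0.23. In cKO MZ, these 3 lay lower in replicate 1, at -0.32, -0.44 and -0.36. Of 11 immediate early genes, a list chosen after the values were seen, 7 were higher in replicate 1 of both WT subsets, 3 (*Fos*, *Egr1* and *Ier2*) were lower in both and 1 differed between the subsets, while all 11 were lower in replicate 1 of cKO MZ. *Fos* was 9813 and 18030 in WT FO and 11290 and 19330 in WT MZ libraries. Among the 7, *Nr4a1*, an orphan nuclear receptor induced by antigen receptor signals, differed between the replicates by 1.34 in FO and 1.41 in MZ libraries of WT, and by 0.67 and -0.89 in those of cKO, and *Atf3*, a stress-induced transcription factor, by 3.26, 3.22, 1.19 and -0.78. The 11 immediate early genes summed to 101100 and 81650 (FO) against 131800 and 88920 (MZ) in WT libraries, and 112900 and 108600 (FO) against 107800 and 139200 (MZ) in cKO libraries. Their part in the receptor values was not tested.

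**Figure D5:**
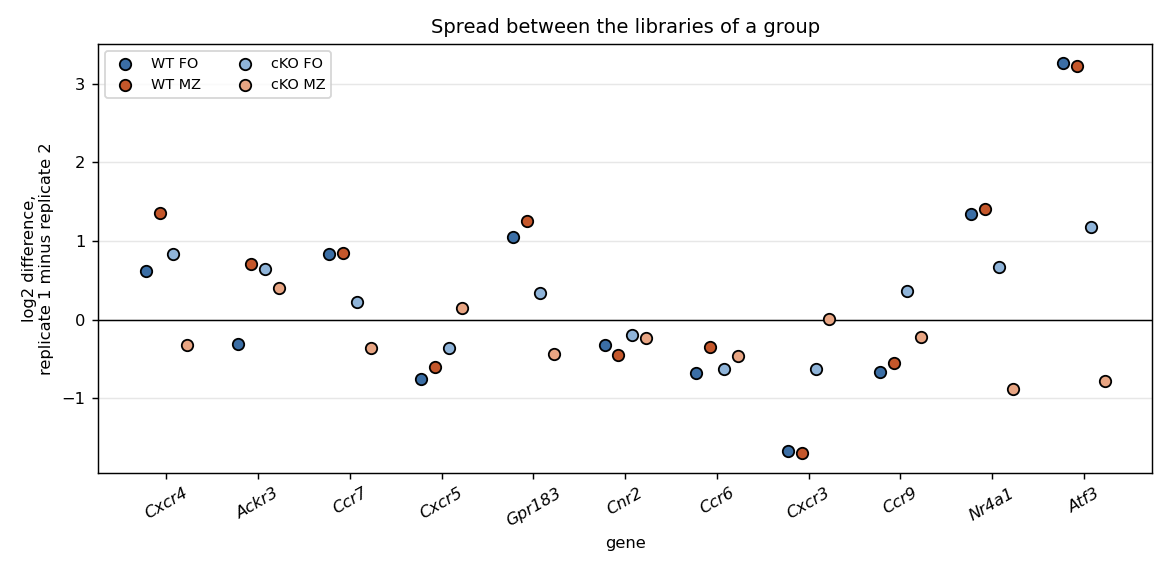
Log2 difference between replicate 1 and replicate 2 (vertical axis) for the 9 receptor genes and for *Nr4a1* and *Atf3* (horizontal axis), with a point for each group. In WT, *Cxcr4*, *Ccr7* and *Gpr183* lie above 0 with *Nr4a1* and *Atf3*, and *Cxcr5*, *Cnr2*, *Ccr6*, *Cxcr3* and *Ccr9* lie below 0.

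Other chemokine receptors that differed between the subsets were higher in MZ B cells. Of the 17 described here, 8 were tested, and 2 were called higher in MZ and 0 higher in FO in each genotype. Over all tested genes, 7.41% were called higher in MZ and 4.62% higher in FO in WT, and 8.18% and 5.54% in cKO. The median FO minus MZ of the list was -0.10 in WT and -0.75 in cKO. *Ackr2*, an atypical receptor that removes inflammatory CC chemokines, had normalized counts of 33.9 and 73.3 (FO) against 1221 and 2135 (MZ) in WT libraries, and 49.3 and 56.4 (FO) against 2203 and 2002 (MZ) in cKO libraries. FO minus MZ of *Ackr2* was -4.99 in WT and -5.29 in cKO (limma adjusted p = 0.000231 and 0.000165). *Ccr1*, a receptor for CCL3 and CCL5, was 24.95 and 75.2 in WT FO and 422 and 865 in WT MZ, a difference of -3.77, and -4.48 in cKO (limma adjusted p = 0.00399 and 0.00170). Macrophages also carry *Ccr1*, and the 10 macrophage and monocyte markers summed to 841 to 1490 in FO and 818 to 2269 in MZ libraries. Of these 10 markers, 1 was called, *Cd68*, higher in MZ at -0.74 in WT and -0.87 in cKO (limma adjusted p = 0.0398 and 0.0197). This count stands beside the same shares of all tested genes, 7.41% and 8.18% higher in MZ. The median of FO minus MZ over the list was -0.41 and -0.96. *Adgre1* differed by 0.78 and 0.64 and *Ly6c2* by 1.62 and 0.43, and neither was called. *Lyz2* lay at 0.20 in WT and -1.165 in cKO, also without a call. All other markers of the list lay higher in MZ in both genotypes, and of these only *Cd68* was called. The part of macrophages in the *Ccr1* difference was not tested.

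Genes for ligands, and for enzymes that make or break down lipid ligands, were tested in small numbers. Of 9 chemokines listed, 2 were tested, with 0 called in either genotype. Across genotypes 1 was called higher in MZ, beside 10.9% of all tested genes. This was *Cxcl10*, a ligand of CXCR3, at 4.03 to 7.84 in FO and 12.5 to 19.9 in MZ libraries. *Ccl25*, the ligand of CCR9, was 118 to 176. *Cxcl12* and *Cxcl13* did not exceed 1.81 and 6.34 in any library. Of 12 enzymes listed, 8 were tested, with 0 called higher in FO and 1 higher in MZ in WT and 0 and 2 in cKO, where 7.41% and 8.18% of all tested genes were called higher in MZ. *Abhd6*, a hydrolase of 2-arachidonoylglycerol, had normalized counts of 225 and 217 in WT FO and 374 and 428 in WT MZ, with FO minus MZ of -0.85 in WT and -0.99 in cKO (limma adjusted p = 0.0135 and 0.00655). *Mgll*, the main hydrolase of this lipid, differed by -1.57 in cKO (limma adjusted p = 0.0229) and by -1.20 in WT, which did not pass (limma adjusted p = 0.0659). *Ch25h* and *Cyp7b1*, which make the GPR183 ligand, did not exceed 2.24 and 1.90 in any library.

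Among 23 tested genes of receptor signalling and desensitization, 2 were called higher in MZ B cells in each genotype. Over all tested genes, 7.41% were called higher in MZ in WT and 8.18% in cKO, so the count was near that share. The 2 genes encode kinases that phosphorylate active G protein-coupled receptors. *Grk3* had normalized counts of 170 and 191 (FO) against 2238 and 1904 (MZ) in WT libraries, and 195 and 207 (FO) against 1758 and 2397 (MZ) in cKO libraries. FO minus MZ of *Grk3* was -3.51 in WT and -3.35 in cKO (limma adjusted p = 3.21e-05 and 4.16e-05), and that of *Grk5* was -1.33 and -1.57 (limma adjusted p = 0.00226 and 0.00100). No other gene of the list was called higher in MZ. *Grk2* and *Grk6*, the kinase genes of the list with the highest normalized counts, lay the other way. They differed by 0.42 and 0.56 and by 0.45 and 0.48, under the fold limit. No gene of the list was called higher in FO in WT, beside 4.62% of all tested genes, and 2 were in cKO, beside 5.54%. The 2 were *Gna13*, a G protein alpha subunit, at 0.59 and *Arrb1*, a beta-arrestin, at 0.59. Both lay near the 1.5-fold limit, and their WT differences of 0.51 and 0.49 were below it. The median over the list was 0.24 in WT and 0.23 in cKO.

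Receptors for other lipids and orphan receptors of B cell positioning divided between the subsets. Of 18 tested, 3 were called higher in FO and 6 higher in MZ in each genotype, with a median of -0.54 in WT and -0.48 in cKO. Over all tested genes, 4.62% were called higher in FO and 7.41% higher in MZ in WT, and 5.54% and 8.18% in cKO. The median over all tested genes was 0.0048 in WT and 0.0047 in cKO. Those higher in FO were *S1pr4*, a sphingosine 1-phosphate receptor, at 1.499 and 1.67, *Gpr174*, a lysophosphatidylserine receptor, at 0.95 and 0.92, and *P2ry10b* at 1.04 and 1.02. *S1pr3*, another sphingosine 1-phosphate receptor, differed by -4.95 and -5.34 (limma adjusted p = 7.51e-06 and 5.73e-06). *Gpr55*, a receptor for lysophosphatidylinositol, differed by -3.06 and -3.55 (limma adjusted p = 0.00461 and 0.00208), *Gpr34* by -2.95 and -3.32 (0.0330 and 0.0190, limma adjusted p) and the ADP receptor gene *P2ry12* by -3.10 and -2.30 (0.00550 and 0.0160, limma adjusted p). *P2ry12* had only 2.99 to 8.96 normalized counts in FO and 32.8 to 57.1 in MZ libraries.

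The genes whose pattern over the 8 libraries was most like that of *Ccr7*, among 10177 genes with a mean of at least 100, were *Btbd7* and *Gramd4*, each with Pearson r = 0.998. Those most like *Ackr3* were *Rrp1b* and *Crebl2*, each with r = 0.999. These correlations rest on 8 libraries that fall into 2 subsets, so they describe a shared difference between FO and MZ cells. *Crebl2* ran from 995 to 1082 in FO and from 3227 to 3921 in MZ libraries, and *Gramd4* from 3803 to 4464 in FO and from 2753 to 3266 in MZ libraries.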

How the data were processed

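RNA-seq of sorted FO and MZ B cells was analysed in 8 libraries, 2 per group. According to the methods of the study, ribosomal RNA was depleted, 50bp single end reads were aligned to mm10 with HISAT2 and counted on genes with FeatureCounts and htseq-count. The authors deposited a signal table of DESeq2-normalized counts, in which each value is a read count divided by the size factor of its library. After 256343 blank lines were left out it held 27928 genes, and 100% of the values came back as whole reads, within 0.02 of a read.

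Values were put on the scale log2(count + 1), and limma 3.58.1 (R 4.3.3, lmFit and a trended eBayes) was run over all 8 libraries for the 14761 genes with a mean of at least 10, with p adjusted over all of them by the Benjamini-Hochberg method. Calls needed an adjusted p no higher than 0.05 and a change of 1.5-fold or more, the cutoff of the study. With 2 libraries against 2, an exact two-sided permutation test cannot go below p = 0.333, so single genes were tested with limma across all genes and not by permutation. Levels between genes were compared per kb of exon in GENCODE M21. The receptors, lists and tests were chosen with earlier results of these data known. Named genes were the 9 receptors and, from each list, at most 4 members called in both genotypes by the largest mean difference. Some ligands of the receptors, and enzymes for such ligands, were also named. The markers *Ncr1* and *Cd3e* were named outside these rules. *Gna13*, *Arrb1*, *Ccl25*, *Ch25h*, *Cyp7b1*, *Mgll*, *Cd68*, *Adgre1*, *Ly6c2*, *Lyz2*, *Trac*, *Il7r*, *Lat*, *S1pr4*, *Gpr174*, *P2ry10b*, the immediate early genes, *Grk2* and *Grk6* were chosen once values were known. Alternatives were a pseudocount of 0.5, no filter, quantile normalization, the 4 libraries compared, a replicate block, DESeq2 1.42.0, edgeR 4.0.16, no fold cutoff, a 2-fold cutoff and each library left out. The fits were tested on simulated data. The 8 ATAC-seq samples were not analysed here. A few items, among them a member of a receptor list, were left out of the text and of the counts of that list.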

Additional observations from a re-analysis of the deposited data

How the results depend on the processing

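Of 477 alternative values for the 27 receptor differences, 434 kept their direction and side of the threshold, 18 lost a call, 5 gained one and 20 changed sign. Several alternatives could not move a difference, so its direction was fixed in advance there. These were no filter, the 4 libraries compared, the replicate blocks and the fold cutoffs. Within a genotype, leaving out a library of the other genotype could not move it either. *Cxcr5* in WT stayed at -0.245 under all of these. Of 142 alternative values for the 8 counts of calls, 133 were within 1.5 times the count reported. These 133 include the receptors called between cKO and WT, which were 0 in every setting. They also include the equal count of 0 for the test of whether FO minus MZ differed between the genotypes. The fold cutoffs reused the main fit. With a fit of the 4 WT libraries alone, 1 receptor and 1040 genes were called in WT, against 2 and 1776. In cKO, 1325 genes passed a 2-fold cutoff, and leaving out 1 library gave 1067 to 2135 against 2026, with 1218 without cKO FO replicate 1, 1067 without cKO MZ replicate 1 and 1350 without cKO MZ replicate 2; across genotypes it gave 2 to 4 receptors. Of the uncalled differences (FO minus MZ), 10 changed sign when a library was left out, ranging in WT from -0.62 to 0.13 for *Cxcr5*, -0.29 to 0.38 for *Ccr6*, -0.067 to 0.60 for *Ccr9*, -0.12 to 1.14 for *Gpr183* and -0.29 to 0.16 for *Cnr2*, in cKO from -0.29 to 0.064 for *Cxcr5* and -0.40 to 0.22 for *Ccr6*, and across genotypes from -0.37 to 0.0082 for *Cxcr5*, -0.19 to 0.14 for *Ccr6* and -0.21 to 0.020 for *Cnr2*. *Ccr6* in WT was -0.013 with quantile normalization. The cause was not tested. Of the 9 receptors, 8 changed sign in some alternative for cKO minus WT in FO and 5 in MZ.

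The replicate numbers are shared by the groups without a stated pairing: deviations from the group means correlated at 0.769 between WT FO and WT MZ and at -0.122 between cKO FO and cKO MZ. With the replicate block, 2 receptors were called in WT and 4 in cKO, where *Cxcr3* passed (limma adjusted p = 0.0287). With the numbers of cKO MZ exchanged in the block, an alternative chosen after seeing the data, 3 receptors were called in WT and 4 in cKO. DESeq2 called 24 genes in FO and 48 in MZ for cKO against WT, where limma called 10 and 5. Reads were few for *Cxcr3* (9 to 106), *Ccr9* (23 to 79) and *Ackr3* in FO (33 to 51), and counting error is larger there.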
